A study of Homo sapiens with 8 samples.

Results

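The loci described here are the long non-coding RNA loci that lie in the ribosomal DNA arrays and in the mitochondrial genome, 34 of the 15469 loci with values. They were chosen by a rule on position, with earlier results of these data known. Of these, 32 lie in ribosomal DNA (10 in the chromosome 21 short arm array, 8 on the contig GL000220.1 and 14 on the contig KI270733.1) and 2 lie on the mitochondrial chromosome, MT. All but 1 carry an LXLOC name, and the exception is the Ensembl gene ENSG00000280441 (FP236383.1). Another 5 loci at these positions have a dash in place of values, 4 of them antisense to 18S, and were left out. RNA of HepG2 cells and LM3 cells, both labelled as hepatocellular carcinoma lines, was sequenced after culture with vehicle (DMSO) or with JQ1, a small-molecule inhibitor. There were 2 libraries for each of the 4 groups. The labels name no genetic change for either line. They give neither dose nor duration of JQ1. The design asks how lncRNA levels change with JQ1 in each line.

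Ribosomal DNA is a tandem repeat on the short arms of the acrocentric chromosomes. In each repeat RNA polymerase I transcribes a 45S precursor, which is processed into the 18S, 5.8S and 28S ribosomal RNAs with removal of the external and internal transcribed spacers. An intergenic spacer separates one 45S unit from the next. Spacer RNA is known from both strands: some antisense transcripts silence the 45S promoter, and some sense transcripts made under stress hold proteins in the nucleolus. Mitochondrial DNA is transcribed from both strands as well. The transcript of one strand carries both mitochondrial rRNAs, and the opposite transcript runs antisense to them and is normally short-lived.

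The 5.8S rRNA served here as the ruler of the repeat, since its 8 annotated copies on chromosome 21, GL000220.1 and KI270733.1 are spaced 43972 to 45079 bp apart on GRCh38 where they follow each other in tandem. On chromosome 21 a wider gap separates the first 2 copies from the other 2. It is printed because positions of the loci below are counted from the 45S start that lies 6601 bp before it (median of 5 annotated 45S units of 13309 to 13373 bp). The copy shown is chr21:8212572-8212724 on the plus strand, from the GENCODE 29 transcripts, where the 4 copies included have 1 sequence. The exon 3 of ENSG00000280441 (chr21:8405960-8406056, plus strand, 16.92 kb after the 45S start) is shown as the annotated exon that lies first in the spacer after 45S. The third sequence is the strand of the mitochondrial valine tRNA position (MT-TV, MT 1602 to 1670) that the mitochondrial antisense locus LXLOC_058362 covers, written as the reverse complement of the GENCODE transcript. Capitals were not used, since no base within them is singled out.
RNA5-8SN2: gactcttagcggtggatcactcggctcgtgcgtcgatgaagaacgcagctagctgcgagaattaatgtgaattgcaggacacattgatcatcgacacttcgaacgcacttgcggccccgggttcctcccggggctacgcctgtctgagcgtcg
ENSG00000280441 exon: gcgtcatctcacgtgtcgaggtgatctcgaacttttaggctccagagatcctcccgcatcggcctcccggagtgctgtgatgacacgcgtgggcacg
antisense of MT-TV: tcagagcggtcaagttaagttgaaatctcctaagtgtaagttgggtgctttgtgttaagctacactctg

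By position and strand the 32 ribosomal DNA loci fall into 5 groups. There are 10 sense loci within the spacer (same strand as 45S), 6 antisense loci within the spacer and 4 sense loci inside a 45S unit. The other groups are 10 long sense loci and 2 long antisense loci, which span at least parts of 2 units of 45S and a spacer. Of the 8 units, 5 have an annotated 45S, and in the others its position was inferred from 5.8S. Of the long sense loci, LXLOC_035060, LXLOC_035064 and ENSG00000280441 start and end outside 45S. Of the 34 loci, 26 overlap another of them on the same strand. The values are FPKM (fragments counted per length of the locus and per library size), which allow levels to be compared between loci. The depth behind them is unknown, because the tables hold no counts. The repeats are near-identical copies, so how fragments were divided among copies, and between overlapping loci, is uncertain for every ribosomal DNA value below. The 32 ribosomal DNA loci summed to 2902 ± 383 FPKM with vehicle and 3561 ± 406 FPKM with JQ1 in HepG2, and to 5626 ± 462 and 6343 ± 426 FPKM in LM3 (SD, n = 2 each). The 2 mitochondrial loci summed to 1776 ± 411 and 2086 ± 6.31 FPKM in HepG2 and to 1103 ± 51.2 and 1240 ± 61.9 FPKM in LM3. Together the 34 loci held 15.3% to 18.1% of all FPKM in the 4 HepG2 libraries and 18.9% to 22.8% in the 4 LM3 libraries. As a check of the labels, the hepatoma lncRNA H19 was at 2038 to 2249 FPKM in HepG2 and 310 to 348 FPKM in LM3, and protein-coding liver markers are not part of these tables.

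The clearest pattern was a strand difference between the lines in the intergenic spacer. Sums over the spacer groups were not planned and were added after the data were seen. Sense spacer loci summed to 37.39 and 37.35 FPKM in the HepG2 vehicle libraries and to 47.02 and 50.95 FPKM with JQ1. In LM3 the same 10 loci summed to 1917 and 1932 FPKM with vehicle and to 2992 and 2790 FPKM with JQ1. The 6 antisense spacer loci ran the opposite way. They summed to 148.39 and 138.06 FPKM with vehicle and 157.95 and 166.46 FPKM with JQ1 in HepG2, but to 5.25 and 7.89 FPKM with vehicle and 6.43 and 6.95 FPKM with JQ1 in LM3. In bulk RNA, a change in every cell and a change in some of the cells cannot be told apart. No library of one line overlapped a library of the other for either sum, and within each line the 4 libraries lay close together beside this gap. The line tables may have been normalized separately, so levels set across lines are a description. The ratio of sense to antisense spacer sums within a library does not depend on that scale. It was 0.252, 0.271, 0.298 and 0.306 in the HepG2 libraries, where antisense exceeded sense. In the LM3 libraries it was 365.1, 244.9, 465.4 and 401.4, with sense far above antisense in all 4.

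**Figure D1:**
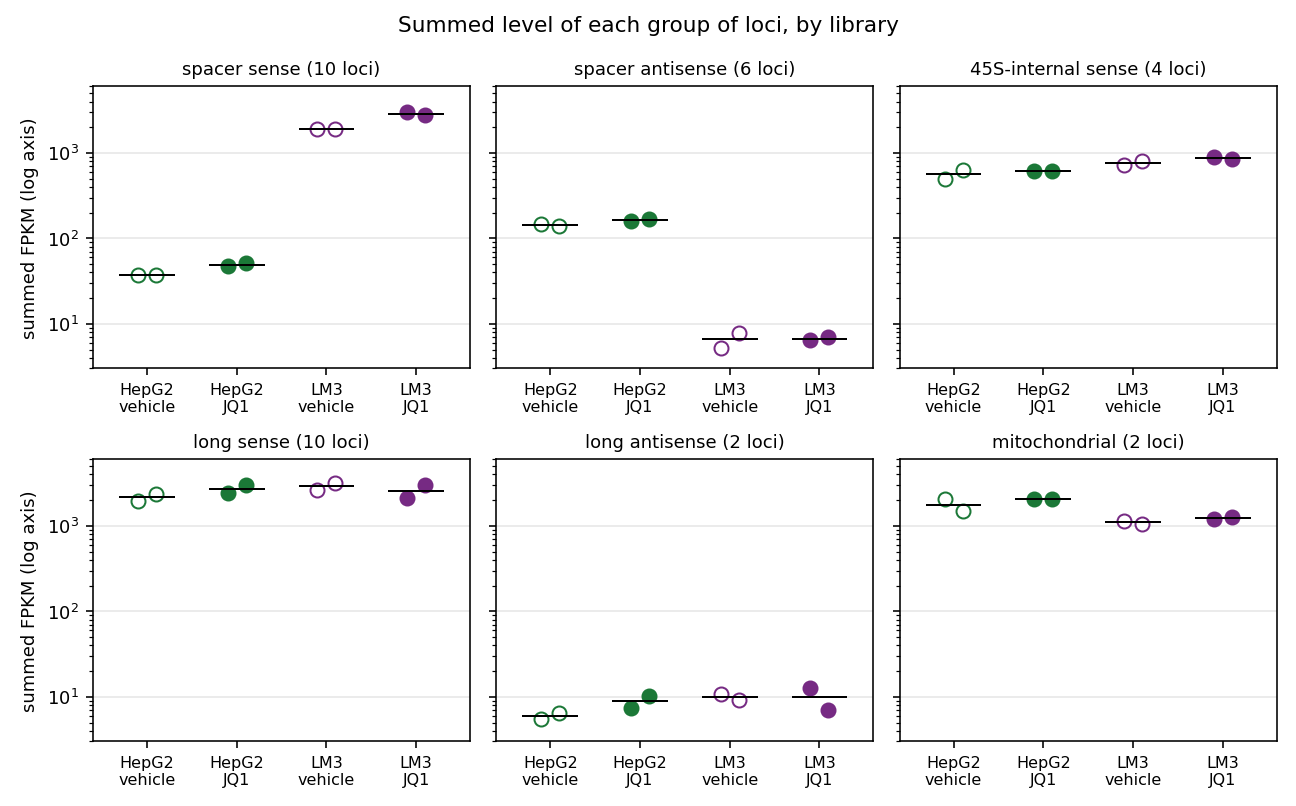
Summed FPKM of each group of loci (log axis) in every library, with vehicle libraries as open points, JQ1 libraries as filled points and group means as bars. Sense spacer loci sit near 37 to 51 FPKM in HepG2 and 1917 to 2992 FPKM in LM3, antisense spacer loci lie the other way round, and the other 4 groups differ far less between lines.

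Locus by locus, 9 of the 10 sense spacer loci were at least 10-fold higher in LM3 than in HepG2 with vehicle (on FPKM + 0.5, libraries not overlapping), as were 0.753% of the 7302 loci compared, these included. The median difference was 5.66 on the log2 scale for these 10 loci and 0.25 for all loci. LXLOC_035058 (chromosome 21, 8238859 to 8239457), which shares 224 bp with the pseudogene CDC27P9, had the widest gap. It was at 1.39 and 1.83 FPKM in HepG2 vehicle libraries and at 243.38 and 247.48 FPKM in LM3 vehicle libraries, a 152-fold difference of the means. The exception was LXLOC_035076, the only sense spacer locus above 10 FPKM in HepG2, at 12 and 14.16 FPKM there and 87.87 and 88.82 FPKM in LM3 (6.75-fold). Its HepG2 libraries were still all below its LM3 libraries. On the antisense strand, 5 of 6 loci were at least 10-fold higher in HepG2, as were 0.342% of the loci compared. LXLOC_058290, the sixth, was listed at 0 in all 4 LM3 libraries and ranged from 0.46 to 5.59 FPKM in HepG2.

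The strand contrast was also seen between loci that share a position. On KI270733.1 the antisense locus LXLOC_058293 (154878 to 156464) lies within the sense locus LXLOC_058286 (154166 to 157879). In HepG2 vehicle libraries the antisense locus was at 18.57 and 18.23 FPKM and the sense locus at 3.77 and 3.75 FPKM. In LM3 vehicle libraries the antisense locus was at 0.87 and 1.27 FPKM and the sense locus at 323.52 and 320.97 FPKM. LXLOC_058296 (161895 to 162730) likewise lies within LXLOC_058288 (158121 to 165395). It was at 34.94 and 33.84 FPKM in HepG2 against 3.44 and 3.86 FPKM for its sense partner. In LM3 it was at 1.96 and 2.32 FPKM against 256.49 and 254.34 FPKM. In both pairs the order of the strands was the reverse in the other line. For strand use in counting, a setting is not given in the sources used here.

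Along the repeat, sense spacer loci in LM3 were lower in the earlier part of the spacer and mostly higher in the later part, towards the next 45S start. LXLOC_058201, which starts 18.06 kb after the 45S start, was at 51.23 and 60.14 FPKM with vehicle, and LXLOC_058202, from 19.88 to 24.84 kb, was at 20.21 and 12.73 FPKM. From 27.38 kb to 43.12 kb, 6 of 7 loci lay between 213 and 431 FPKM with vehicle. LXLOC_058287 (33.7 to 34.21 kb), nested within LXLOC_058286, was the exception at 67.11 and 54.04 FPKM. LXLOC_058204 (GL000220.1, 137642 to 138945; 32.22 to 33.52 kb) was the highest, at 419.19 and 430.78 FPKM. The antisense loci lay in the later part of the spacer, up to the next 45S start, and none lay close behind a 45S unit. LXLOC_058291, which lies 0.68 kb before a 45S start, was at 35.42 and 36.21 FPKM in HepG2 vehicle libraries and at 0.7 and 1.89 FPKM in LM3 vehicle libraries. LXLOC_058209, which lies 1.6 kb before one, was at 35.48 and 28.95 FPKM in HepG2 and at 1.36 and 1.72 FPKM in LM3, also with vehicle. LXLOC_058297 (42.77 to 44.68 kb) was at 18.39 and 20.37 FPKM in HepG2 and at 0.36 and 0.69 FPKM in LM3.

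**Figure D2:**
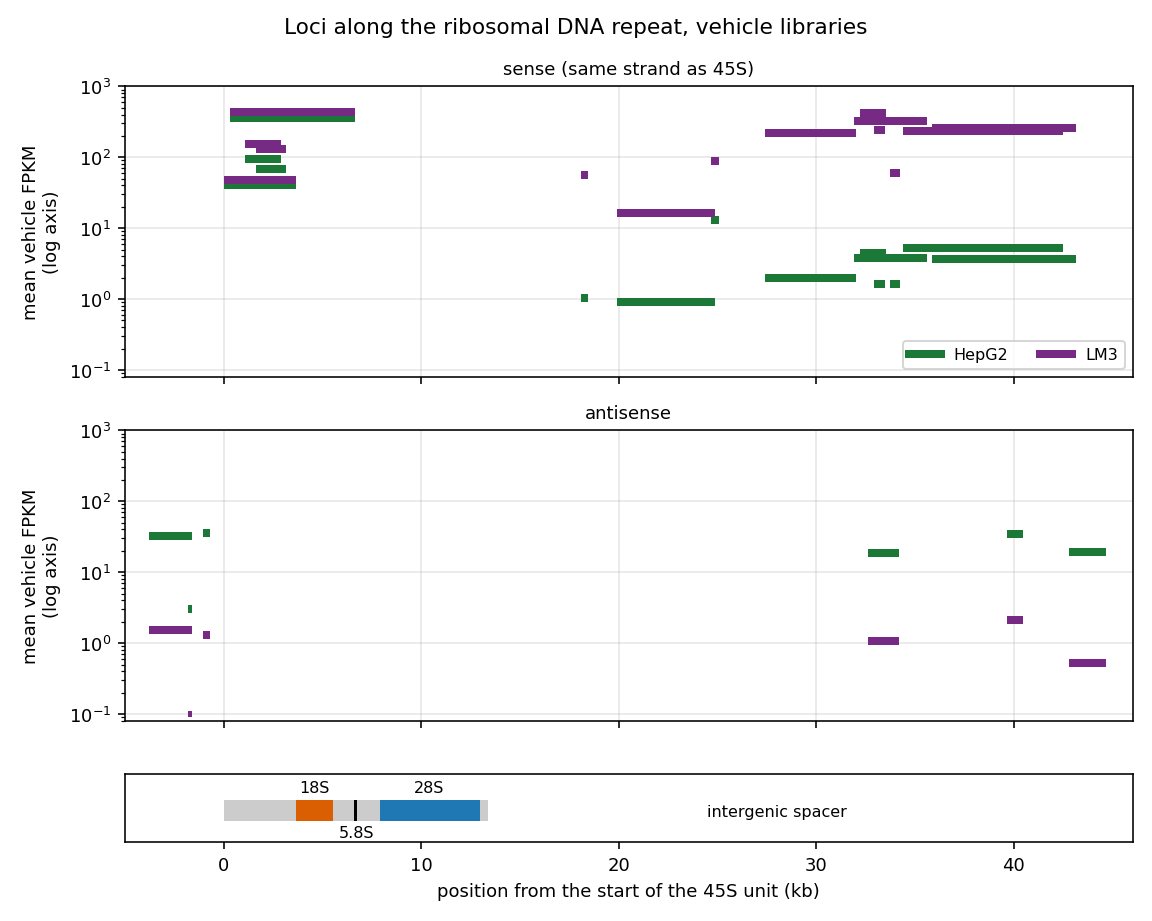
Mean vehicle FPKM (log axis) of the spacer loci and the loci inside 45S by position from the 45S start (kb), sense above and antisense below, with the 18S, 5.8S and 28S genes marked at the foot. Bars span each locus, and the locus listed at 0 in LM3 is drawn at the foot of its axis. Inside 45S the lines lie close together, while in the spacer LM3 is above HepG2 on the sense strand and below it on the antisense strand.

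Inside 45S no such gap between lines was seen. None of the 4 loci was 10-fold higher in either line, and their median difference was 0.49 on the log2 scale. The libraries were depleted of ribosomal RNA, and whether depletion differed between them was not tested. This limits comparisons of loci over 18S and 28S, between lines and with JQ1. LXLOC_035067 covers the 5′ external transcribed spacer, 18S and the first internal transcribed spacer, and ends 18 bp into 5.8S (0.29 to 6.62 kb). It was at 312.66 and 403.43 FPKM in HepG2 vehicle libraries and 407.69 and 459.93 FPKM in LM3 vehicle libraries. LXLOC_058207 (1.05 to 2.9 kb) and LXLOC_058283 (1.62 to 3.14 kb), both in the 5′ external transcribed spacer, were at 77.53 to 110.38 FPKM and 59.42 to 77.02 FPKM in HepG2 and at 149.43 to 159.1 FPKM and 121.15 to 144.23 FPKM in LM3. The long sense loci include LXLOC_035068, the ribosomal DNA locus with the highest vehicle mean in each line, which spans the 28S gene of one unit and reaches into the next. It was at 557.82 and 654.33 FPKM in HepG2 and 1081 and 1099 FPKM in LM3 with vehicle. Of the 10 long sense loci, 2 were at least 10-fold higher in LM3. These were LXLOC_035060, at 0.94 and 0.96 FPKM in HepG2 and 49.94 and 37.2 FPKM in LM3, and LXLOC_035064, at 0.83 and 0.98 FPKM in HepG2 and 27.72 and 30.68 FPKM in LM3. The other 8 had means within 2-fold of each other in the lines. The 2 long antisense loci stayed between 2.32 and 9.37 FPKM in all 8 libraries.

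In LM3, sense spacer RNA rose with JQ1. The sum of the 10 loci was 1924 ± 10.9 FPKM with vehicle and 2891 ± 143 FPKM with JQ1 (SD, n = 2 each), a ratio of 1.5, and no sum was tested. Of the 32 loci tested in LM3, 9 passed limma's test on log2(FPKM + 0.5) at an adjusted p under 0.05 (Benjamini-Hochberg over all 6474 loci tested), 7 higher and 2 lower. Over all loci tested 23.3% passed, 7.92% higher and 15.4% lower, so the count as a whole was near the background and the balance of directions was not. All 7 that rose were sense spacer loci. All 10 sense spacer loci had a positive log2 change, from 0.34 to 0.72 with a median of 0.58, against a median of -0.08 over all loci tested. In 9 of the 10 both JQ1 libraries lay above both vehicle libraries, as in 27.0% of all loci tested. LXLOC_058202 was the exception, at 20.21 and 12.73 FPKM with vehicle and 12.82 and 33.17 FPKM with JQ1.

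LXLOC_058288 (KI270733.1, 158121 to 165395; 35.84 to 43.12 kb) went from 256.49 and 254.34 FPKM with vehicle to 390.53 and 386.8 FPKM with JQ1 in LM3. Its log2 change was 0.60 ± 0.07 (SE, limma adjusted p = 0.0122). LXLOC_058286, next to it in the same spacer, went from 323.52 and 320.97 FPKM to 487.92 and 481.84 FPKM (0.59 ± 0.07, limma adjusted p = 0.0124). In both, replicates of a group lay close together and the groups were far apart. On the other contig, LXLOC_058204 went from 419.19 and 430.78 FPKM to 657.83 and 632.32 FPKM (0.60 ± 0.07, limma adjusted p = 0.0126). LXLOC_058205 (GL000220.1, 139781 to 147890; 34.36 to 42.47 kb) went from 234.65 and 236.83 FPKM to 363.56 and 343.74 FPKM (0.58 ± 0.08, limma adjusted p = 0.0143). LXLOC_035058 on chromosome 21 had 371.74 and 335.52 FPKM with JQ1 (0.52 ± 0.09, limma adjusted p = 0.0234). Spacers on all 3 sequences held a locus that rose. These are near-identical copies among which the division of fragments is uncertain, so they are not independent observations. LXLOC_058203 (GL000220.1, 132807 to 137437) rose from 212.89 and 225.87 FPKM to 414.3 and 315.83 FPKM with the widest spread between JQ1 libraries (0.72 ± 0.15, limma adjusted p = 0.0386). LXLOC_035076 rose from 87.87 and 88.82 FPKM to 119.41 and 111.02 FPKM (0.38 ± 0.08, limma adjusted p = 0.0392).

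**Figure D3:**
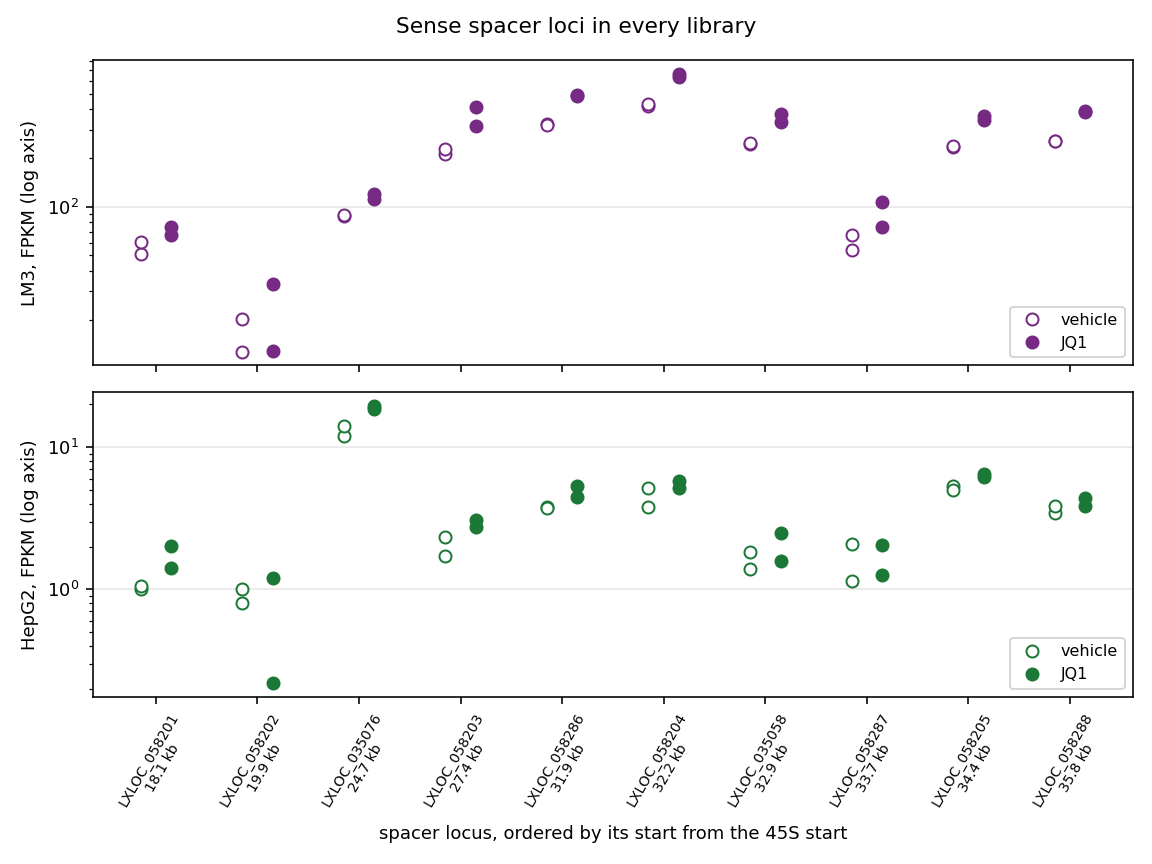
FPKM (log axes, of different range in the LM3 and HepG2 panels) of the 10 sense spacer loci in every library, ordered by start from the 45S start, with vehicle libraries open and JQ1 libraries filled. In LM3 both JQ1 points lie above both vehicle points for 9 of the 10 loci, and in HepG2 for 7 of the 10.

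No ribosomal DNA locus outside the sense spacer group was called higher in LM3, and the difference between groups of loci was not tested. Of the 4 loci inside 45S none passed, with log2 changes from -0.05 to 0.22. LXLOC_035067, over 18S, had 479.16 and 520.84 FPKM with JQ1 (0.21 ± 0.10, limma adjusted p = 0.199). Long sense loci had a median of -0.22, with 2 of 10 lower and none higher. LXLOC_035064 went from 27.72 and 30.68 FPKM with vehicle to 37.72 and 51.47 FPKM with JQ1, groups that did not overlap, with a log2 change near the median of the sense spacer loci (0.59 ± 0.18, limma adjusted p = 0.0810). LXLOC_058200 went from 254.51 and 272.71 FPKM to 321.22 and 348.39 FPKM (0.34 ± 0.09, limma adjusted p = 0.0572). It was called after centring (limma adjusted p = 0.0336) or rescaling to the sum outside these loci (0.0355). LXLOC_058284 (KI270733.1, 127808 to 173624) runs from just behind 18S through 5.8S and 28S into the next unit. It fell from 640.48 and 652.39 FPKM to 492.29 and 497.39 FPKM (-0.39 ± 0.07, limma adjusted p = 0.0283). LXLOC_058285, which overlaps it on the same strand from 129508 on, was at 272.46 and 547.52 FPKM with vehicle and at 150.37 and 298.64 FPKM with JQ1, so that its groups overlapped (limma adjusted p = 0.252). None of the 4 antisense spacer loci tested and neither long antisense locus passed. The calls in LM3 needed all 4 libraries. Without any 1 of them no locus of the whole table passed, and the smallest adjusted p of the sense spacer loci was 0.0618 to 0.118, with 9 or 10 of the 10 still positive. After quantile normalization 1 of the 10 passed, and all 10 stayed positive with a median of 0.40. Without loci that overlap a more abundant one, 3 of the 10 were left, and all 3 passed as higher. LXLOC_058286 and LXLOC_058288, called higher, lie on the same strand within LXLOC_058284, which was called lower.

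In HepG2 the sense spacer loci summed to 37.4 ± 0.0283 FPKM with vehicle and 49.0 ± 2.78 FPKM with JQ1 (SD, n = 2 each), a ratio of 1.31. Of the 34 loci, all tested, 5 passed limma's test over 5906 loci, 4 higher and 1 lower, where 25.1% of all loci passed, 10.8% higher and 14.2% lower. The share of these loci that passed was thus below that of all loci. Among sense spacer loci 1 of 10 passed and 9 of 10 had a positive log2 change (median 0.26, against -0.01 over all loci tested). In 7 of the 10 both JQ1 libraries lay above both vehicle libraries, as in 32.4% of all loci tested. The 1 that passed was LXLOC_035076, at 12 and 14.16 FPKM with vehicle and 18.55 and 19.61 FPKM with JQ1 (0.53 ± 0.10, limma adjusted p = 0.0283). It was the only spacer locus that passed in both lines. Its call was lost in both without the filter on low values and after quantile normalization. It was also lost in HepG2 after rescaling and in LM3 without trend or robust fitting, with adjusted p up to 0.0659 in HepG2 and 0.0758 in LM3 over the settings that kept all libraries.

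The other 4 HepG2 calls were spread over 3 groups. LXLOC_058281 starts at the 45S start of KI270733.1 (122280 to 125950) and holds the 5′ external transcribed spacer. It rose from 41.53 and 39.66 FPKM to 61.87 and 59.3 FPKM (0.57 ± 0.07, limma adjusted p = 0.0115). In LM3 the same locus was at 41.59 and 54.12 FPKM with vehicle and 37.2 and 56.32 FPKM with JQ1 (-0.05 ± 0.25), with groups that overlapped. LXLOC_058291, the antisense locus (KI270733.1, 121229 to 121600) that lies 0.68 kb before that 45S start, rose from 35.42 and 36.21 FPKM to 46.87 and 51.15 FPKM (0.45 ± 0.08, limma adjusted p = 0.0214). These loci lie on either side of the same annotated 45S start, on opposite strands. The other 3 loci inside 45S were not called in HepG2. LXLOC_058283, nested within LXLOC_058281 on the same strand, went from 59.42 and 77.02 FPKM to 70.08 and 76.97 FPKM (0.12 ± 0.15, limma adjusted p = 0.596). LXLOC_058207 changed by -0.16 ± 0.19 (limma adjusted p = 0.582) and LXLOC_035067 by 0.16 ± 0.14 (limma adjusted p = 0.442). LXLOC_035064, a long sense locus, rose from 0.83 and 0.98 FPKM to 2.82 and 4.01 FPKM (1.46 ± 0.18, limma adjusted p = 0.0114), from a level near the filter of 0.5 FPKM. Without either of the HepG2 JQ1 libraries no locus of the whole table passed. Without vehicle replicate 1, 4 of the 34 loci passed, and without vehicle replicate 2, 6 passed.

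ENSG00000280441 was the only one of the 34 loci called lower in both lines, but its near twin did not share the HepG2 call. It is an annotated long non-coding gene with 7 exons and a transcript of 2498 nt, with 2 exons before a 45S start and 5 in the spacer after it, from 16.92 to 21.61 kb. In HepG2 it fell from 1.72 and 2.54 FPKM to 1.05 and 1.05 FPKM (-0.74 ± 0.17 on the log2 scale, limma adjusted p = 0.0423). In LM3 it fell from 2.2 and 2.12 FPKM to 1.59 and 1.37 FPKM (-0.43 ± 0.10, limma adjusted p = 0.0469). Its level was alike in the lines, unlike that of its sense spacer neighbours. LXLOC_035064 has the same start and end (8380643 to 8454792) on the same strand and was higher, not lower, with JQ1 in HepG2. The neighbouring gene ENSG00000278996 (FP671120.1) has an identical transcript sequence and the same FPKM in 3 of 4 HepG2 and 4 of 4 LM3 libraries, so the copies cannot be told apart. In HepG2 vehicle replicate 2 the twin was at 0.75 FPKM where ENSG00000280441 was at 2.54 FPKM, and the twin did not pass there (-0.10 ± 0.29, limma adjusted p = 0.822). In LM3 its values and its call were the same as those above. Over 9 other settings that kept all libraries, the call of ENSG00000280441 held in 5 in HepG2 and in 3 in LM3. Its limma adjusted p there was up to 0.0895 in HepG2 and 0.0932 in LM3. Both calls were lost without the filter on low values, after centring of the libraries on their medians, after quantile normalization and after rescaling. The LM3 call was also lost without trend or robust fitting and with the replicate number as a block.

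**Figure D4:**
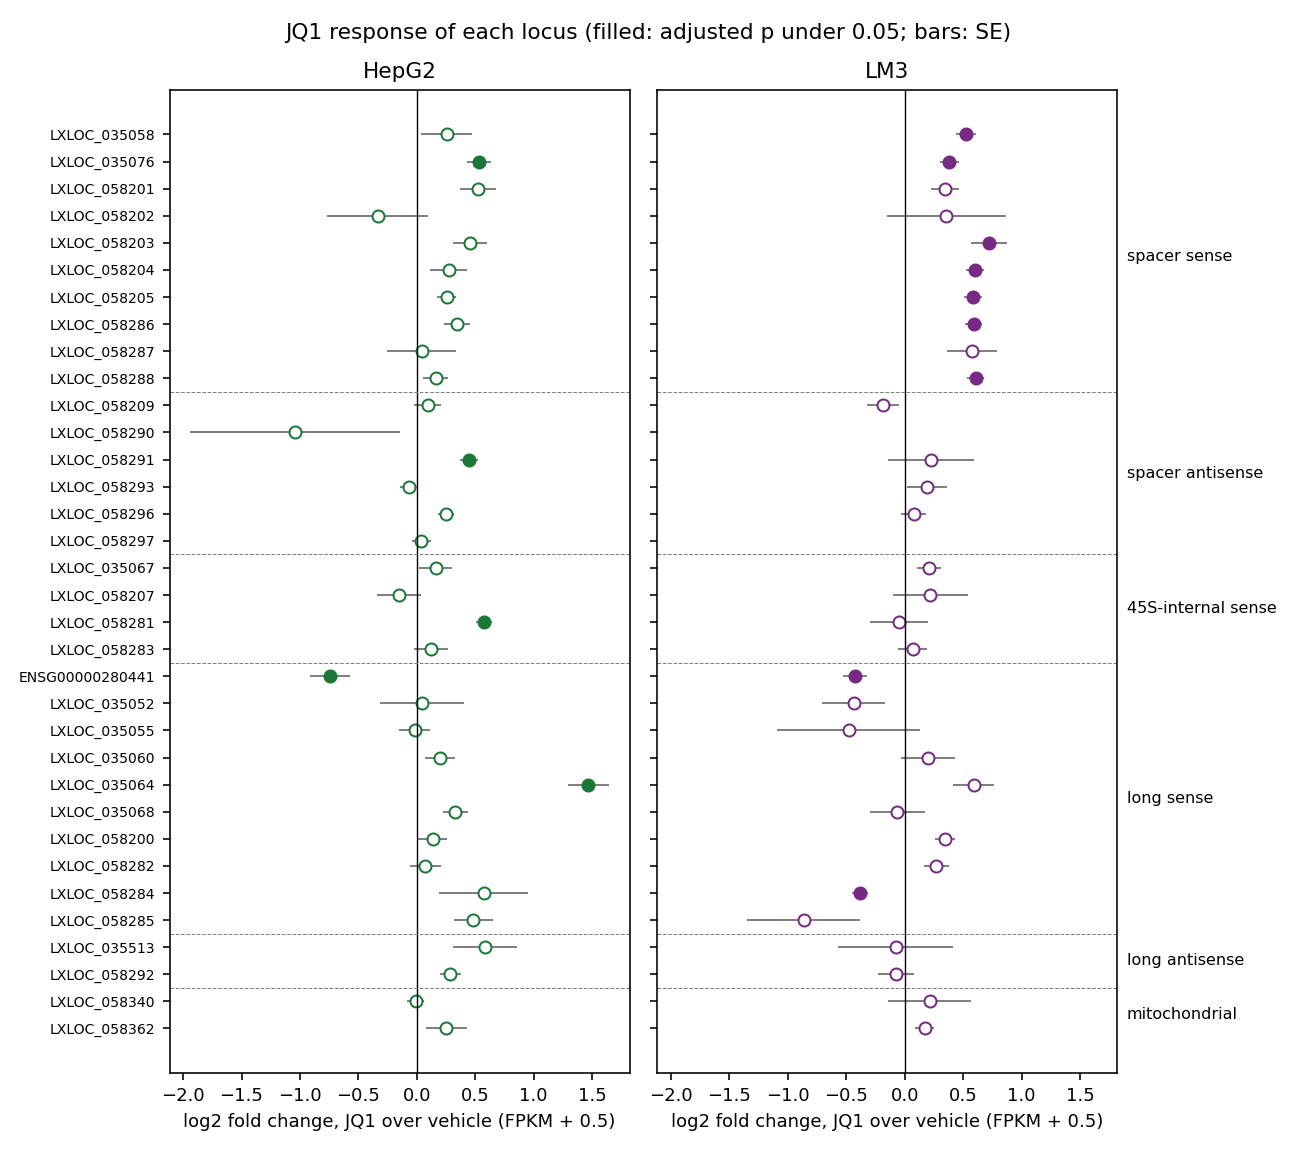
Log2 fold change of JQ1 over vehicle (on FPKM + 0.5) with its SE for each locus in HepG2 and LM3, grouped as in the text, with filled points for an adjusted p under 0.05. In LM3 the filled points above 0 are 7 sense spacer loci, and ENSG00000280441 is filled and below 0 in both lines.

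Whether the response differed between lines was tested directly in a fit of all 8 libraries. None of the 32 loci passed (limma, smallest adjusted p = 0.254), and 11 of 5035 loci in all passed (0.218%). The unadjusted limma p was under 0.05 for 3 of the 32 loci and for 604 of the 5035. The difference of the log2 changes, LM3 minus HepG2, ran from -0.18 to 0.69 over the sense spacer loci and was positive in 8 of 10. For LXLOC_058288 it was 0.44, with a 95% interval of 0.15 to 0.74 (limma adjusted p = 0.254). For LXLOC_058205 it was 0.33, with an interval of 0.09 to 0.57 (limma adjusted p = 0.294). The third was LXLOC_035064, at -0.88 with an interval of -1.54 to -0.21 (limma adjusted p = 0.309). A larger rise of spacer RNA in LM3 than in HepG2 was therefore not shown after adjustment, and a difference of the sizes in these intervals was not excluded.

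On the mitochondrial chromosome the 2 loci differed greatly in level. LXLOC_058362 (MT 1 to 2469, minus strand) runs antisense to the phenylalanine tRNA, all of the 12S rRNA gene (RNR1), the valine tRNA whose antisense strand is printed above, and 799 bp of the 16S rRNA gene (RNR2). It was the most abundant of the 34 loci in HepG2, at 2058 and 1476 FPKM with vehicle and 2081 and 2072 FPKM with JQ1. In LM3 it was at 1134 and 1060 FPKM with vehicle and 1192 and 1274 FPKM with JQ1. The JQ1 libraries lay above the vehicle libraries in each line, but neither change passed (log2 0.25 ± 0.18, limma adjusted p = 0.347 in HepG2; 0.17 ± 0.08, limma adjusted p = 0.201 in LM3). LXLOC_058340 (MT 1 to 303, plus strand), in the control region, was at 8.88 to 9.5 FPKM in the 4 HepG2 libraries and 5.02 to 10.42 FPKM in the 4 LM3 libraries, with overlapping groups in both lines. Without HepG2 vehicle replicate 1 the change of LXLOC_058362 was 0.49 and passed (limma adjusted p = 0.0385), and without vehicle replicate 2 it was 0.013. The vehicle mean of LXLOC_058362 was 1.61-fold higher in HepG2, and in all 4 HepG2 libraries it was above all 4 LM3 libraries.

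A nuclear copy of mitochondrial DNA on chromosome 1 holds 4 minus-strand loci that overlap the pseudogenes MTND1P23, MTND2P28, MTCO1P12 and MTATP6P1. None of the 4 passed in either line, with a median log2 change of 0.22 in HepG2 and 0.08 in LM3. LXLOC_002800, over MTATP6P1, was the highest in vehicle libraries, at 116.87 and 94.92 FPKM in HepG2 and 58.1 and 47.39 FPKM in LM3. Its HepG2 values too were above those of LM3, as were those of LXLOC_002796 and LXLOC_002798. LXLOC_002797 did not share this, at 11.77 and 7.69 FPKM in HepG2 and 10.39 and 9.29 FPKM in LM3 with vehicle. Loci on the rest of the chromosome 21 short arm and on other unplaced contigs show how neighbouring repeat-rich sequence behaved. Of the former, 6 of 32 tested were higher and 1 lower in HepG2, and 5 of 33 higher and 5 lower in LM3. On the other contigs, 3 of 81 were higher and 9 lower in HepG2, and 3 of 73 higher and 4 lower in LM3. Their medians lay between -0.06 and 0.05, against 0.22 in HepG2 and 0.21 in LM3 for the 34 loci. From a list of nucleolar, rRNA-processing and abundant structured RNAs, 8 were tested in each line. Of these, 1 was higher in HepG2 and 3 in LM3, with 0 lower. Their median log2 change was 0.08 in HepG2 and 0.12 in LM3. NEAT1, the scaffold of paraspeckles, rose in both lines (log2 0.98 ± 0.10, limma adjusted p = 0.00864 in HepG2, and 0.64 ± 0.08, limma adjusted p = 0.0122 in LM3). MALAT1, of nuclear speckles, and SNHG1, a snoRNA host, rose in LM3 by 0.34 and 0.43 on the log2 scale (limma adjusted p = 0.0491 and 0.0283).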

How the data were processed

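Total RNA was depleted of ribosomal RNA, and paired reads were sequenced, per the labels' protocols. The authors deposited 1 table per line in FPKM, per the file headers. Bowtie 0.12.2, hg19 and mm8 are named without a role in the submitters' processing notes; how reads were aligned and counted, and with which strand setting, is not given in the sources used here. Coordinates match GRCh38: of 8453 Ensembl IDs found in GENCODE 29, 100% had the same chromosome and 83.9% the same start. Total FPKM per library was 29369 to 35742; depth is unknown. Nothing says that replicates came from separate cultures, so p-values measure only the spread between libraries.

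Members and lists were chosen with earlier results of these data known. Loci whose mean reached 0.5 FPKM were tested in limma 3.58.1 (R 4.3.3, trend and robust, two-sided) on log2(FPKM + 0.5), within each line and, for the difference, over 8 libraries. This scale understates changes of low loci. The fit was tested on simulated data. 45S positions come from RefSeq (GRCh38.p14). Named were the 12 most abundant loci of each class and called loci; other loci, chosen for strand or position, were named after their values were seen.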

Additional observations from a re-analysis of the deposited data

How the results depend on the processing

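No difference between lines was called in any setting, and the sums of the ribosomal DNA and mitochondrial loci moved by less than the spread between replicates. The spacer sums themselves and their alternatives were added after seeing the data. The log2 change of the sense sum went from 0.39 to 0.55 without overlapping loci (1 of the 10 left) and to 0.30 without the most abundant locus in HepG2, and from 0.59 to 0.67 when centred in LM3. That of the antisense sum went from 0.18 to 0.077 without the most abundant locus in HepG2, and in LM3, where it was 0.055, from -0.24 to 0.35 without 1 replicate. In HepG2, 5 loci were called, and 3 without the filter on low values, 3 after rescaling to the sum outside these loci, 2 without loci that overlap a more abundant one (which leaves 16 of the 34 loci), and 0 to 6 without 1 replicate. In LM3, 9 loci were called, and 5 without the filter, 2 after quantile normalization, 4 without overlapping loci (14 tested) and 0 without any 1 replicate. With the replicate number as a block, 9 loci were called in HepG2 (8 higher) and 11 in LM3, among them LXLOC_058285 (-0.86, limma adjusted p = 0.0154) and LXLOC_035064 (0.59, limma adjusted p = 0.0428) but not LXLOC_035076 or ENSG00000280441. Over all loci tested, deviations of same-numbered libraries correlated at -0.03 in HepG2 and 0.13 in LM3, over 2 pairs. That did not settle whether single loci follow the replicate number. In LM3, LXLOC_058285 was higher in replicate 2 both with vehicle and with JQ1. LXLOC_058202 was higher in replicate 1 with vehicle and in replicate 2 with JQ1. The cause of the changes between settings was not tested, beyond fewer loci or libraries where stated.

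Some changes that were not called turned direction. In HepG2 these were LXLOC_035055 (0.020 when centred on the median), LXLOC_035067 (-0.16) and LXLOC_058200 (-0.089) after quantile normalization, and LXLOC_058340 (0.028 when centred). In LM3 these were LXLOC_035068 (0.020 when centred, 0.015 after quantile normalization, 0.0046 when rescaled) and LXLOC_058281 (0.032 when centred, 0.016 when rescaled). Without 1 replicate, HepG2 changes ran from -0.18 to 0.14 for LXLOC_035055, from -0.013 to 0.52 for LXLOC_035058, from -0.022 to 0.35 for LXLOC_035067 and from -0.057 to 0.035 for LXLOC_058340. In LM3 they ran from -1.11 to 0.15 for LXLOC_035055, from -0.39 to 0.27 for LXLOC_035068, from -0.35 to 0.24 for LXLOC_058281, from -0.27 to 0.72 for LXLOC_058291 and from -0.28 to 0.70 for LXLOC_058340.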
